A study of Mus musculus with 48 samples.

Results

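Neurod1, Neurod2 and Neurod6 encode basic helix-loop-helix (bHLH) transcription factors of young neurons. The cells described here were the cells of the embryonic mouse hypothalamus that held at least 1 UMI (unique molecular identifier, a count of 1 captured mRNA molecule) of at least 2 of these 3 genes and 0 UMIs of Gbx2. They are called Neurod cells below. There were 306 of them among 14121 cells, 156 of 7186 in Control and 150 of 6935 in Eed-cKO embryos. The cells were thus chosen by their measured UMIs of Neurod1, Neurod2, Neurod6 and Gbx2, and these genes are described and not tested. The study asked what the loss of Eed does to the cell types of the hypothalamus, and sequenced mRNA 3' ends of single cells from embryos at E18.5, shortly before birth. Control embryos (n = 6, 2 female and 4 male) were Eed fl/fl and carried no Cre. Eed-cKO embryos (n = 9, 5 female and 4 male) were Eed fl/fl; Sox1-Cre/+. Both genotypes thus shared the floxed Eed alleles, and the Cre insertion and the loss of Eed cannot be told apart. Cre was expressed from the Sox1 locus, which is active in the neural plate and in CNS progenitors, so the endothelial cells and microglia of the same tissue are not its targets. The embryos gave 48 libraries, 22 Control and 26 Eed-cKO, and cells were summed per embryo because libraries of 1 embryo share an animal. The first part of the library names, which the labels do not define, took 4 values in Control and 6 in Eed-cKO, with 1 genotype each. If it marks litters, litter and genotype cannot be told apart.

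Neurod genes act downstream of proneural factors such as the neurogenins, when a newborn neuron leaves the cell cycle and differentiates, and are best known from glutamatergic neurons of the cortex, hippocampus and cerebellum. Glutamatergic neurons of the hypothalamus load glutamate into synaptic vesicles with the transporter encoded by Slc17a6, whereas Gbx2 marks neurons of the neighbouring thalamus. Eed is a core subunit of Polycomb repressive complex 2 (PRC2), which places a repressive histone methyl mark on developmental genes that a tissue does not use, among them the Hox genes of the hindbrain and spinal cord in forebrain cells.

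The libraries held 576432 to 4513505 UMIs each, and the smallest cell 601. A library of Control embryo 5 stood apart with 1207 cells and a median depth of 2919 UMIs, while the other libraries held 163 to 465 cells at medians of 2663 to 7532 UMIs. It gave 18 of the Neurod cells, and the share of Neurod cells and the totals of called genes are given with and without it. Any 2 libraries shared at most 2 cell barcodes, and no Neurod cell shared its barcode with another Neurod cell. Over all cells, Eed was at 29.0 to 33.9 CPM (its UMIs scaled to a common total per sum of cells) in Control embryos and at 19.2 to 27.3 CPM in Eed-cKO embryos, and the groups did not overlap. In Neurod cells, Eed gave 4 to 11 UMIs per Control embryo and 0 to 7 per Eed-cKO embryo, which did overlap. The floxed exons lie upstream of the 3' end that the libraries read, so these values do not check the deletion.

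The Neurod cells were neurons by genes that the rule did not use. The neuronal tubulin Tubb3 was detected in all 306, the microtubule regulator Stmn2 in 99.7% and the synaptic protein gene Snap25 in 89.2% of them, and 297 held at least 4 of 6 pan-neuronal genes. Slc17a6 was detected in 88.6% of Neurod cells. For comparison, a non-neural gate of 919 cells, each with at least 3 genes of an endothelial, pericyte, leptomeningeal or microglial marker list, had Tubb3 in 26.99%, Stmn2 in 40.7%, Snap25 in 25.8% and Slc17a6 in 18.9% of its cells, where cells had a median depth of 4335 UMIs against 6998.5 for Neurod cells. The cortical glutamate transporter gene Slc17a7 was found in 2 Neurod cells. The GABA transporter gene Slc32a1 was detected in 16.3% of Neurod cells and in 10.9% of the non-neural gate, and the GABA synthesis genes Gad1 and Gad2 in 20.3% and 18.95% of Neurod cells against 16.8% and 11.4% of the gate. When every cell was thinned to 2000 UMIs (299 Neurod and 734 gate cells were deep enough), Tubb3 was detected in 95.7% against 25.3%, Snap25 in 62.5% against 14.99%, Slc17a6 in 67.9% against 11.04%, Slc32a1 in 7.02% against 5.59% and Gad1 in 8.36% against 9.67%. At equal depth, then, Slc17a6 stood clear of the gate. With genotypes pooled, the 95% exact binomial intervals of Slc32a1 (4.40% to 10.5% in Neurod cells) and Gad1 held the value of the gate. By genotype, thinned Gad1 was in 3.95% (Control) and 12.9% (Eed-cKO) of Neurod cells, against 4.89% and 12.4% of the gate. Of the 33 Eed-cKO Neurod cells with Tal1, described below, 18 held Slc32a1, against 31 of all 150 Eed-cKO Neurod cells. In all, 229 Neurod cells held Slc17a6 without Slc32a1, 42 held both, 8 held Slc32a1 without Slc17a6 and 27 held neither. Neurod cells with Slc32a1 were deep, at a median of 8062 UMIs, and 32 Neurod cells were among the 6% of cells with the highest doublet scores. Doublets were not removed, and their part in the double detection was not tested.

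Among the genes that came with the cells' name, Ebf3 was the most frequent outside the rule. Ebf3, a helix-loop-helix factor of differentiating neurons, was detected in 66.3% of Neurod cells, against 20.6% of the other Control cells with Slc17a6 and 7.94% of the non-neural gate. Here and for Klhl1 and Nos1 below, the shares of Neurod cells pool the genotypes. Klhl1, an actin-binding protein of neurons, was detected in 27.8% of Neurod cells, 18.4% of the other Control Slc17a6 cells and 2.61% of the gate. Nos1, the neuronal nitric oxide synthase, was found in only 14.7% of Neurod cells, against 10.2% of the other Control Slc17a6 cells and 1.31% of the gate, so it did not mark most of them. Thinned to 2000 UMIs, Ebf3 was detected in 44.8% of Neurod cells, 15.004% of the other Control Slc17a6 cells and 3.81% of the gate, but Nos1 in 3.68%, 4.80% and 0.136%. By embryo, the level of Ebf3 in the summed Neurod cells was 329, 619 and 816 CPM (lowest, median and highest) in Control and 194, 411 and 765 CPM in Eed-cKO. Klhl1 was at 35.6, 76.2 and 119 CPM in Control and at 29.8, 108 and 158 CPM in Eed-cKO, and Nos1 at 7.13, 33.4 and 66.4 CPM and at 25.2, 29.8 and 155 CPM. The embryos of the genotypes overlapped for all 3 genes.

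The 3 genes of the rule were held at low counts. Neurod1 was detected in 71.2%, Neurod2 in 72.2% and Neurod6 in 75.8% of Neurod cells, and in 28.8%, 36.6% and 25.2% of Neurod cells the gene rested on a single UMI. Neurod6 was at 271, 434 and 765 CPM (lowest, median and highest embryo) in Control and at 165, 302 and 686 CPM in Eed-cKO. Neurod1 was at 191, 280 and 349 CPM in Control and at 201, 299.8 and 455 CPM in Eed-cKO. Neurod2 was the lowest of the 3 in UMIs, at 108, 188 and 281 CPM in Control and 89.3, 188 and 277 CPM in Eed-cKO. These embryo ranges overlapped for each gene. Neurod cells held 61.6% of all UMIs of Neurod2 and 53.3% of those of Neurod6 in the series but only 28.1% of those of Neurod1, so most Neurod1 transcripts lay in cells that the rule left out. Just inside the threshold, 247 cells held exactly 2 of the 3 genes, with a median of 4 summed UMIs. Just outside it, 1370 cells held exactly 1 of the genes at a median of 1 UMI, and 73.4% of them held Slc17a6. The condition on Gbx2 removed 4 cells.

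The cells fell into 4 combinations that differed in the other genes they held. Neurod1 with Neurod2 (74 cells), Neurod1 with Neurod6 (85 cells), Neurod2 with Neurod6 (88 cells) and all 3 genes (59 cells) were detected in similar numbers. Crhbp, which encodes a secreted protein that binds corticotropin-releasing hormone, was found in 0 of the 74 Neurod1 and Neurod2 cells (95% exact binomial interval up to 4.86%), in 9.41% of the Neurod1 and Neurod6 cells, and in 35.2% (25.3% to 46.1%) of the Neurod2 and Neurod6 cells. Ebf2, a relative of Ebf3, followed the same order at 14.9%, 21.2% and 52.3%. Lmx1a, a LIM homeodomain factor of the mammillary and subthalamic region, was found in 22.97%, 27.1% and 61.4%. Sim1 and Nkx2-1 were least frequent in the Neurod2 and Neurod6 cells. Sim1, a factor of the paraventricular and mammillary regions, was in 33.8%, 36.5% and 11.4%, and Nkx2-1, a ventral hypothalamic factor, in 33.8%, 47.1% and 19.3% of the same combinations. Cells with all 3 genes held Crhbp in 32.2% and Sim1 in 32.2%. The median depth was 5603, 6424 and 6876.5 UMIs per cell in these combinations and 8687 in the cells with all 3 genes. Thinned to 2000 UMIs, Crhbp was found in 0%, 3.57% and 20.2%, Ebf2 in 8.33%, 11.9% and 25%, Lmx1a in 12.5%, 9.52% and 29.8% and Sim1 in 22.2%, 22.6% and 7.14%, against 0.409%, 2.18%, 1.63% and 1.63% of the non-neural gate. Nkx2-1 was then in 5.95% of the Neurod2 and Neurod6 cells against 7.63% of the gate, which reads as background. The combinations are parts of the rule and share embryos and libraries, so these shares are a description with no test. They also pool the genotypes, and 48 of the 74 Neurod1 and Neurod2 cells but 36 of the 88 Neurod2 and Neurod6 cells came from Eed-cKO embryos. Over all Neurod cells, Crhbp was in 23.1% (Control) and 14.7% (Eed-cKO) and Nkx2-1 in 26.3% and 42.0%, and the part of genotype in the shares by combination was not tested. Here the intervals cover counting error only.

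**Figure D1:**
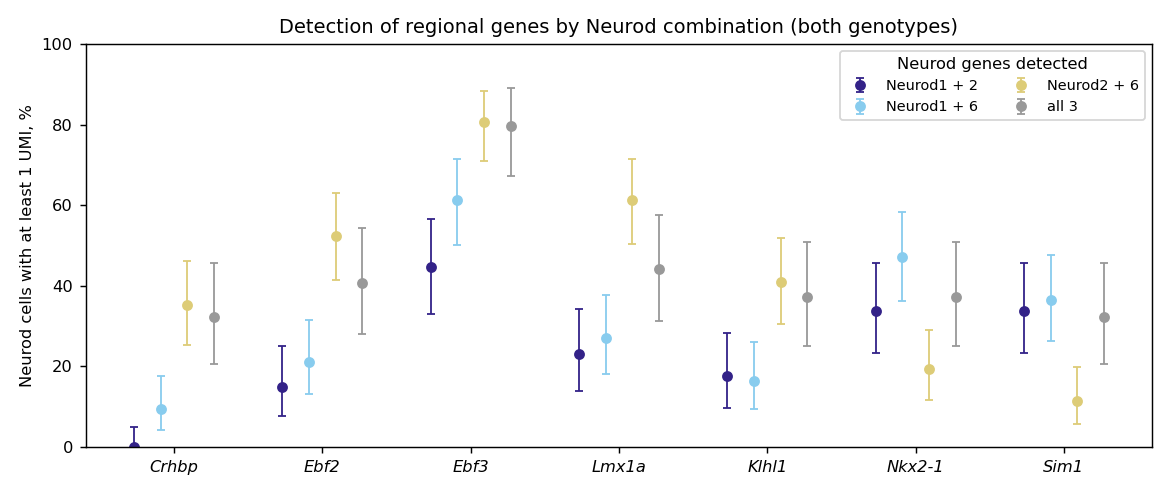
Percent of Neurod cells with at least 1 UMI of 7 genes (y axis), by the combination of Neurod genes detected (colours), both genotypes pooled; bars are 95% exact binomial intervals. Crhbp, Ebf2, Lmx1a and Klhl1 were most frequent in cells with Neurod2 and Neurod6, and Sim1 and Nkx2-1 least frequent there.

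Markers of other cells were low in the Neurod cells but not at 0. Microglial genes summed to 0 to 7.13 CPM in Control and 0 to 14.5 CPM in Eed-cKO embryos, with no UMI of C1qa in any Neurod cell. Astrocyte genes summed to 35.1 to 486 CPM in Control and 0 to 1039 CPM in Eed-cKO, and 3 Control and 11 Eed-cKO Neurod cells held at least 3 of the 7 genes. Leptomeningeal genes, mostly collagens, summed to 0 to 21.1 CPM and 0 to 156 CPM, endothelial genes to 12.6 to 223 CPM and 0 to 54.0 CPM, and cycling progenitor genes to 0 to 12.9 CPM and 0 to 121 CPM. Fewer cells of a type and less RNA per cell cannot be told apart in these sums.

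The share of Neurod cells was close in the genotypes. By embryo, Neurod cells were 1.62%, 2.32% and 2.66% (lowest, median and highest) of all cells in Control and 1.31%, 2.33% and 3.25% in Eed-cKO. Every Control embryo lay inside the Eed-cKO range. The means were 2.22% ± 0.432 (SD, n = 6) and 2.24% ± 0.687 (SD, n = 9), which differ by 0.0211 percentage points (95% interval -0.67 to 0.72, p = 0.947 in an exact permutation test, 2-sided, of embryos between genotypes). Without the largest library the difference was -0.0367 points (exact permutation test, p = 0.901). Among the combinations, cells with Neurod1 and Neurod2 had a mean share of 0.375% ± 0.209 in Control and 0.739% ± 0.359 in Eed-cKO as a description, since the combinations are defined by the genes of the rule. Cells with all 3 genes had mean shares of 0.530% and 0.318%. The Neurod1 and Neurod2 difference shrank from 0.365 to 0.0521 points when every cell was thinned to 2000 UMIs. Of the Neurod cells of an embryo, 79.9% ± 12.2 in Control and 72.2% ± 11.5 in Eed-cKO held Slc17a6 without Slc32a1, and 10.9% ± 7.20 and 13.9% ± 9.72 held both. None of the 3 transmitter classes passed the exact permutation test.

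**Figure D2:**
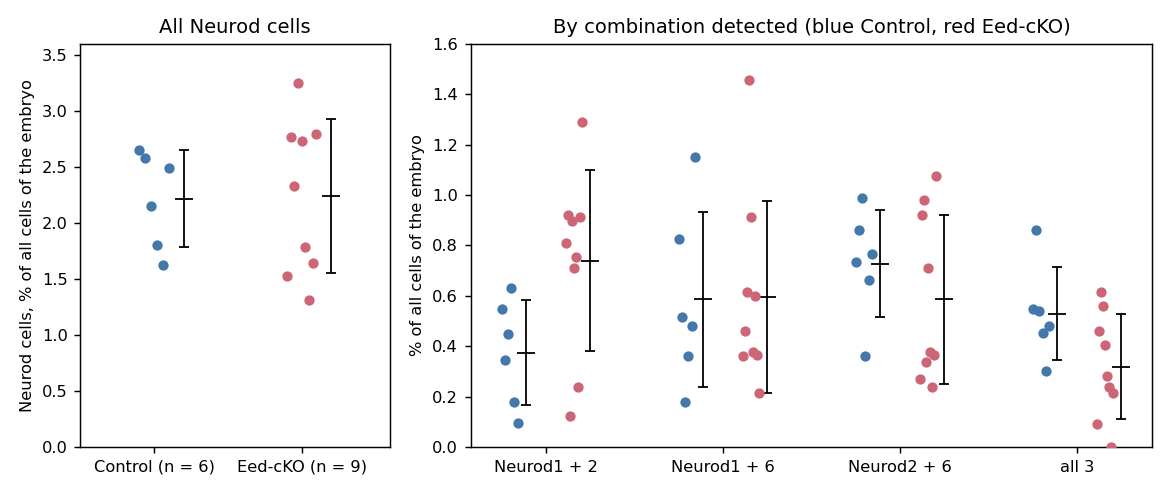
Neurod cells as percent of all cells of an embryo (left, y axis) and the same by combination of Neurod genes (right); each point is 1 embryo, 6 Control in blue and 9 Eed-cKO in red, with mean and SD beside them. The points of the genotypes overlap in every column, and the Control embryos lie between 1.62% and 2.66% in the left panel.

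To find what sets the Neurod cells apart, they were compared with the other cells of the same embryos that held Slc17a6 (2929 Control and 3342 Eed-cKO cells). In Control, Crhbp, the repressor genes Prdm8 and Bhlhe22 and several Ebf genes were higher in Neurod cells, and 16 of 32 neuropeptide genes were lower. Of 13939 genes tested, 445 (3.19%) passed the adjusted threshold of 0.05 in edgeR's quasi-likelihood test, 158 higher (1.13%) and 287 lower (2.06%) in Neurod cells, and 415 (143 and 272) without the largest library. With scaling by library size alone the split was 185 higher and 211 lower. Without the embryo as a block 187 genes passed.

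Crhbp was at 7.27, 8.52 and 11.2 CPM (lowest, median and highest Control embryo) in the other Slc17a6 cells and at 13.4, 85.3 and 303 CPM in Neurod cells. The groups did not overlap, and the log2 fold change was 3.65 ± 0.27 (SE; edgeR adjusted p = 2.26e-38). Prdm8, a zinc finger repressor that works with Bhlhe22, was at 5.01, 12.1 and 18.3 CPM against 64.6, 120 and 245 CPM (3.41 ± 0.24, edgeR adjusted p = 9.66e-42). Bhlhe22 itself, a bHLH repressor of neurons, was at 14.8, 16.7 and 22.9 CPM against 79.5, 123 and 205 CPM (2.87 ± 0.21, edgeR adjusted p = 6.37e-38). Both partners were thus higher in Neurod cells of every Control embryo, with no overlap. Zeb2, a zinc finger homeodomain factor of neuronal differentiation, was at 13.99, 25.9 and 38.0 CPM against 73.7, 170 and 317 CPM (edgeR adjusted p = 3.06e-44). Ebf1 was at 18.2, 20.2 and 27.6 CPM against 63.4, 86.8 and 247 CPM (2.49 ± 0.21, edgeR adjusted p = 2.72e-28). Ntn1, the axon guidance cue netrin, was at 17.3, 26.6 and 39.6 CPM against 46.9, 149.9 and 238 CPM (2.48 ± 0.19, edgeR adjusted p = 1.08e-35). These genes also separated the cells in each Control embryo. Arhgap15, a regulator of Rac, was higher by 3.34 ± 0.50 on the log2 scale, and the receptor gene Calcrl by 2.58 ± 0.41, although Calcrl was also detected in 24.7% of the Control cells of the non-neural gate and 12.2% of the Control Neurod cells. Irx1, an Iroquois homeodomain factor, was higher by 3.02 ± 0.48 in 6 of 6 embryos with overlapping ranges, and Ccnd2, cyclin D2, by 2.31 ± 0.36. Ccnd2 was in 15.4% of the Control Neurod cells, 3.35% of the other Control Slc17a6 cells and 25.3% of the Control gate.

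Several strong genes fell outside the rule for naming and were chosen after their values were seen. Tcf4, a bHLH partner that binds DNA with Neurod proteins, was at 217 ± 57.4 CPM (SD, n = 6) in the other Control Slc17a6 cells and at 1019 ± 378 CPM in Neurod cells, which was 2.199 ± 0.08 higher on the log2 scale (edgeR adjusted p = 3.82e-172). Nfib was at 152 ± 38.7 and 664 ± 324 CPM (2.10 ± 0.09). Ebf2 was at 43.3 ± 15.6 and 110.4 ± 43.1 CPM (1.35 ± 0.19) and Lmx1a at 42.3 ± 15.4 and 97.8 ± 51.5 CPM (1.18 ± 0.20), each higher in 6 of 6 Control embryos. Ebf2, Lmx1a and Ccnd2 each lost the call in 1 of 8 other settings, with adjusted p up to 0.286, 0.192 and 0.194. Of 6 Ebf genes and partners tested, 4 were higher and none lower, at a median log2 difference of 1.21 against -0.0883 over all genes tested. Of 17 other bHLH genes, 5 were higher (Nhlh1, Id2, Tcf4, Bhlhe23 and Bhlhe22) and Id4 was lower, against 1.13% and 2.06% of all genes.

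Of 32 neuropeptide genes tested in Control, 16 were lower in Neurod cells, against 2.06% of all genes, and Sst was higher. Their median log2 difference was -1.98, and DESeq2 called 9 of the 25 that it gave an adjusted p. Genes that are high in the other Slc17a6 cells, a far larger group, can reach the count filter through them alone, so the counts of lower genes in this and the regional lists are descriptions. Avp, the vasopressin gene, was at 972 ± 697 CPM in the other Control Slc17a6 cells and at 3.42 ± 4.20 CPM in Neurod cells, where it gave 4 UMIs. Oxt, the oxytocin gene, gave 2477 UMIs in the other cells and 0 in Neurod cells, which is at least 51.9-fold lower with 3 UMIs over the group as the floor. Crh gave 479 UMIs and 0 (at least 10.0-fold lower). These peptides mark small groups of neurons, and Oxt was detected in 1.23% of the other Control Slc17a6 cells. Tfap2b, a transcription factor of the AP-2 family, was at least 4.52-fold lower, with 216 and 0 UMIs. Vtn, which is known from pericytes and was in 37.6% of the Control cells of the non-neural gate, was at least 4.46-fold lower, with 213 and 0 UMIs. Tfap2b passed in 4 of 7 other settings (edgeR adjusted p = 0.000827, and 0.00108 to 0.379 over the alternatives) and Vtn in 3 of 7 (edgeR adjusted p = 0.00114, and 0.00153 to 0.67), while Crh passed in 5 (up to 0.26) and Oxt in 6 of 7 (up to 0.101). The higher count of Sst rested on few cells, since a single Control Neurod cell held 274 of its UMIs.

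By region, mammillary genes went both ways in the Control Neurod cells. Of those reported here, Lmx1a and Sim1 were higher, and Lhx1, Nkx2-1, Barhl1 and Foxb1 lower, against 1.13% and 2.06% of all genes. Foxb1, the classic mammillary factor, was detected in 6.86% of Neurod cells of both genotypes pooled and in 18.8% of the other Control Slc17a6 cells. Thalamic genes were lower in 6 of 8, arcuate genes in 5 of 10 and pallial genes in 3 of 8, against 2.06% of all genes, and none of these 3 lists had a member that was higher. DESeq2 called 3, 2 and 0 of these genes. The rule removed cells with Gbx2, a thalamic marker, from the Neurod cells but not from the other Slc17a6 cells, of which 6.01% held it in Control, so the thalamic count is a description. Of the paraventricular genes, 4 of 7 were lower (Oxt, Avp, Crh and Trh) and Sim1, which 2 lists share, was higher.

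**Figure D3:**
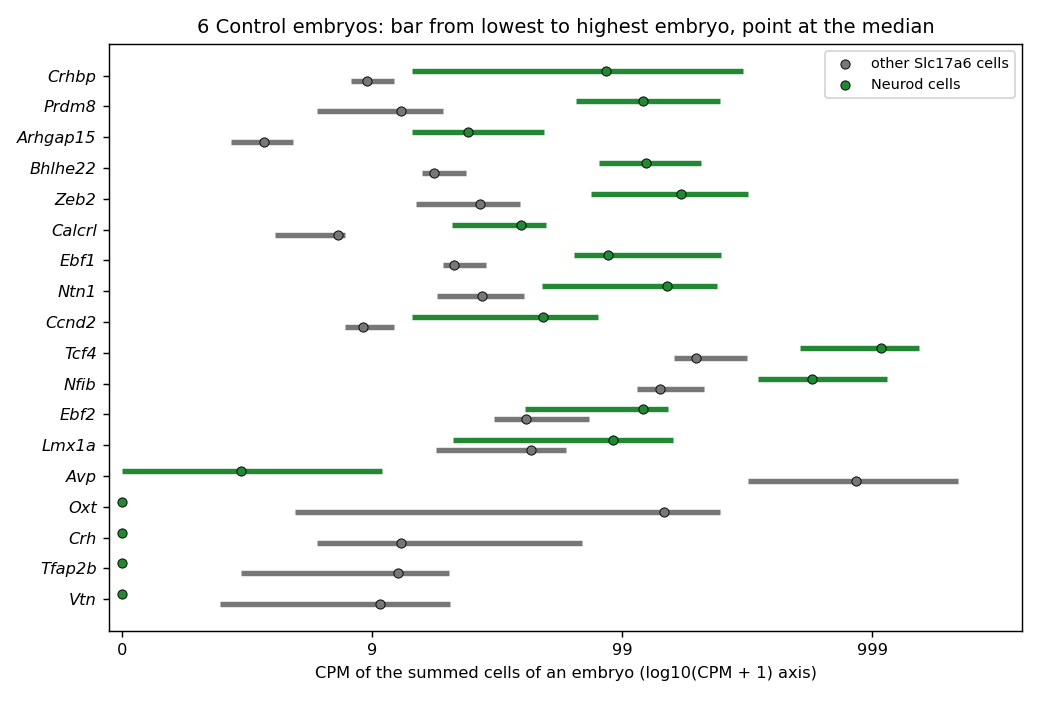
CPM of summed cells in the 6 Control embryos (x axis, log10 of CPM + 1) for Neurod cells (green) and other cells with Slc17a6 (grey); bars run from the lowest to the highest embryo and points mark the median. Crhbp, Prdm8, Bhlhe22, Zeb2, Tcf4 and Nfib did not overlap between the cells, Ebf2 and Lmx1a did, and Oxt, Crh, Tfap2b and Vtn were at 0 in all Control Neurod cells.

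The same comparison in the Eed-cKO embryos gave 453 genes (3.15% of 14376), 121 higher (0.842%) and 332 lower (2.31%) in Neurod cells. With scaling by library size alone the split was 158 and 226, and without the embryo block 288 genes passed. Crhbp was higher by 3.28 ± 0.34 on the log2 scale, Zeb2 by 2.53 ± 0.20, Prdm8 by 2.37 ± 0.26, Bhlhe22 by 2.15 ± 0.23, Ntn1 by 1.75 ± 0.19 and Ebf1 by 1.35 ± 0.22, all past the threshold. Ebf2 was at 18.4 ± 11.7 CPM (SD, n = 9) in the other Slc17a6 cells and at 129.8 ± 88.1 CPM in Neurod cells, which was 2.56 ± 0.24 higher on the log2 scale in 9 of 9 embryos (edgeR adjusted p = 7.97e-23), and Lmx1a was higher by 1.70 ± 0.19 in 9 of 9. Irx1 (1.00 ± 0.62, edgeR adjusted p = 0.509) and Ccnd2 (0.29 ± 0.20, edgeR adjusted p = 0.565) did not pass. Among the GABAergic genes, Gad1, Gad2 and Slc32a1 were lower in Neurod cells, 3 of 5 tested. Of the transcription factors of GABAergic neurons, Sp8, Isl1, Gata3, Dlx1 and Dlx2 were lower, and of 32 Hox genes, Hoxc13 and Hoxc10 were lower. In Control, Gad1 was lower.

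Between the genotypes, 87 of 10583 genes tested (0.822%) passed edgeR's test within Neurod cells, 50 higher (0.472%) and 37 lower (0.35%) in Eed-cKO, at a median log2 fold change of -0.0453. Without the largest library, 140 of 10460 passed, 84 higher and 56 lower. Scaling moved the split, to 65 higher and 22 lower with library size alone and to 65 and 21 with DESeq2's size factors. Genes whose embryos did not overlap numbered 21 (0.198%), 2 higher (0.0189%) and 19 lower (0.18%), and 12 of them also passed the test. In these 12 genes, Hddc3 was higher and the others were lower in Eed-cKO. The p-values set a change against a spread between embryos that edgeR shares over genes. The shared part had 41.8 prior degrees of freedom in this fit. In the comparisons with other Slc17a6 cells and in the interaction it was infinite, so a gene's own spread had no weight there. Some embryos may be litter mates.

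Hddc3, which encodes a phosphohydrolase, lies at chr7:80343104-80350547 on the plus strand of mm10. Its level in Neurod cells was 12.9, 22.2 and 33.7 CPM (lowest, median and highest) in Control and 55.5, 113 and 201 CPM in Eed-cKO. Every Eed-cKO embryo was above every Control embryo, by 2.30 ± 0.31 on the log2 scale (edgeR adjusted p = 7.75e-06), and 22 Control against 73 Eed-cKO Neurod cells held it. Myo7a, an unconventional myosin (chr7:98051060-98119524, minus strand), was at 7.02, 19.2 and 42.8 CPM in Control and at 0, 0 and 4.84 CPM in Eed-cKO, with 28 UMIs in Control and 1 in Eed-cKO (-3.84 ± 0.80, edgeR adjusted p = 0.00484). Grm8, a presynaptic metabotropic glutamate receptor (chr6:27275119-28135178, minus strand), was at 21.04, 44.1 and 74.4 CPM and at 0, 8.54 and 20.3 CPM (-2.54 ± 0.52, edgeR adjusted p = 0.004). Kcnd2, a potassium channel of the A-type current, was at 149, 159 and 227 CPM and at 22.2, 85.4 and 129 CPM (-1.12 ± 0.23, edgeR adjusted p = 0.00347). Both thus had Control embryos above all 9 Eed-cKO embryos, and both calls held when any 1 embryo was left out. In other settings the adjusted p ran from 0.000992 to 0.643 for Grm8, past the threshold in 11 of 13, and from 0.000404 to 0.93 for Kcnd2, past it in 14 of 16. It ran from 9.67e-10 to 0.248 for Hddc3 and from 0.00107 to 0.0555 for Myo7a. Between the genotypes, the other Slc17a6 cells also passed for Kcnd2 (-0.66, edgeR adjusted p = 6.84e-05) but not for Grm8 (-0.56, edgeR adjusted p = 0.0849).

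Negr1, Cd200 and Arl6ip1 were also without overlap between the genotypes. Negr1, a neuronal adhesion protein, was at 442, 499 and 563 CPM in Control and at 108, 297 and 399.7 CPM in Eed-cKO (-0.75 ± 0.16, edgeR adjusted p = 0.00747). Cd200, a surface glycoprotein, was at 606, 757 and 867 CPM and at 259, 465.8 and 576 CPM (-0.65 ± 0.15, edgeR adjusted p = 0.0102), and its adjusted p was 0.0667 without Control embryo 2. Arl6ip1, a protein of the endoplasmic reticulum, was at 471, 570.6 and 812 CPM and at 211, 247 and 433 CPM (-1.07 ± 0.16, edgeR adjusted p = 4.15e-05). These 3 genes were at high counts and lower in all 9 Eed-cKO embryos than in any Control embryo. All 3 also passed between the genotypes in the other Slc17a6 cells, by -0.47 (Negr1), -0.34 (Cd200) and -0.999 (Arl6ip1) on the log2 scale. Tnpo3 and Dgcr2, named below, had edgeR adjusted p of 0.0292 and 0.596 in those cells. The ribosomal protein genes Rps13 and Rps15a were lower by -1.02 ± 0.18 and -0.76 ± 0.17 on the log2 scale, and Rps15a had an adjusted p of 0.0764 without Control embryo 2. The other called ribosomal protein genes, Rpl8, Rpl13, Rpl19 and Rps9, which were chosen after their values were seen, were higher by 0.63 to 0.73 with overlapping embryos. Tnpo3 (-0.88 ± 0.23, edgeR adjusted p = 0.0427) and Dgcr2 (-0.75 ± 0.20, edgeR adjusted p = 0.0492) were called less firmly, and lost the call in 9 and 14 of 15 fits that left out an embryo, with adjusted p up to 0.16 and 0.159. Over all alternatives the adjusted p ran from 0.0263 to 0.843 for Tnpo3 and from 0.0389 to 0.779 for Dgcr2, against 0.000415 to 0.856 for Cd200, 0.00206 to 0.155 for Rps15a, 0.000962 to 0.242 for Negr1 and 3.81e-08 to 0.686 for Arl6ip1.

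**Figure D4:**
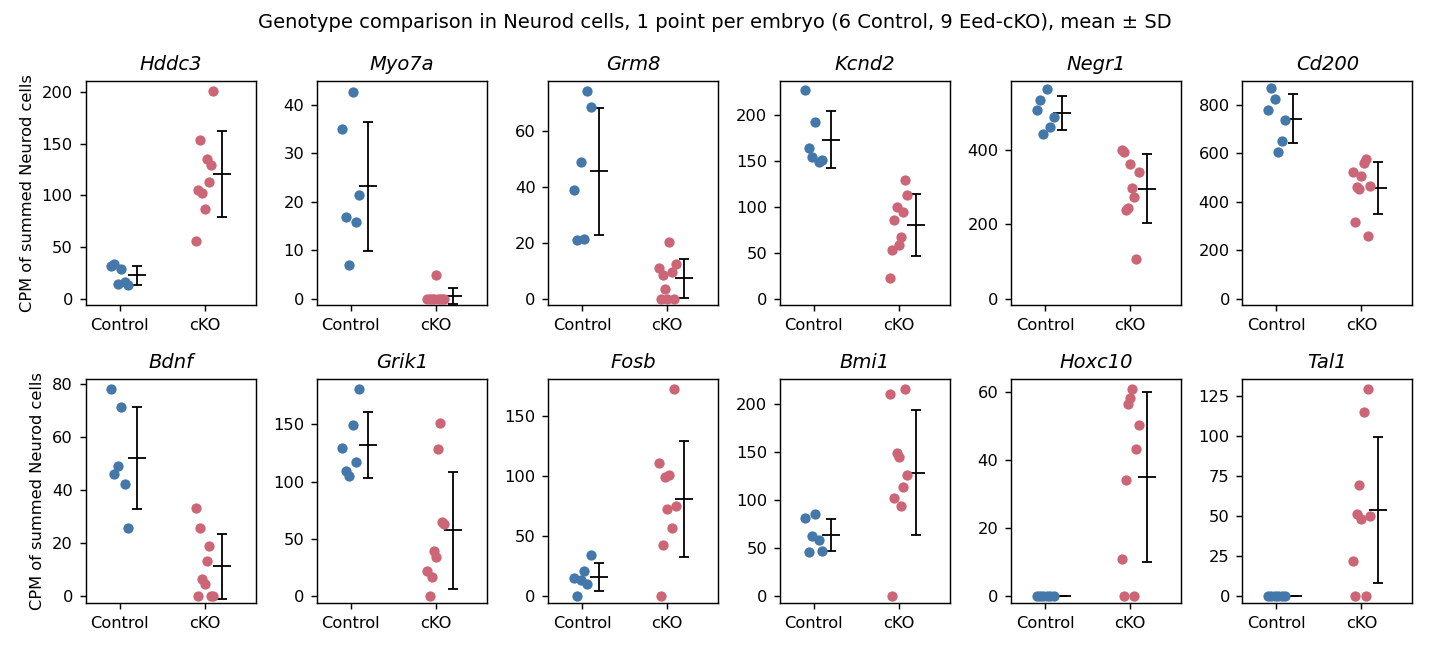
CPM of 12 genes in the summed Neurod cells of each embryo (y axis, own scale per gene), 6 Control in blue and 9 Eed-cKO in red, with mean and SD. Hddc3 lies higher and Myo7a, Grm8, Kcnd2, Negr1 and Cd200 lie lower in every Eed-cKO embryo, the other 6 genes overlap at 1 or more embryos or at 0, and Hoxc10 and Tal1 were at 0 in all Control embryos.

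Chromosome 7, which carries Eed (chr7:89954654-89980983), held a larger share of called genes than the genome. Of the 82 called genes with a position, 16 lay on chromosome 7, where 2.12% of the tested genes passed, against 0.822% over all genes. It held 7.37% of the tested genes with a position, and these shares were not tested. Chromosome 6 followed at 1.80% (9 called genes) and chromosome 16 at 1.56% (5 called genes). Among the 12 called genes without overlap, 5 lay on chromosome 7 (Hddc3, Myo7a, Rps13, Rps15a and Arl6ip1), 3 on chromosome 6 and 2 on chromosome 16. The 5 on chromosome 7 also passed between the genotypes in the other Slc17a6 cells, in the same direction, Hddc3 by 2.88 (log2) and Myo7a with -3.74. The part of linked parental sequence around Eed was not tested.

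Tal1, Gata3, Tfap2b and Hox genes, which no Control Neurod cell held, were found in Eed-cKO Neurod cells. Tal1, a bHLH factor of blood and of GABAergic neurons of the midbrain and spinal cord, was chosen after its values were seen. It was at 0 in all Control embryos and at 0, 50.4 and 129 CPM (lowest, median and highest) in Eed-cKO, with 66 UMIs in 33 Neurod cells of 7 embryos, which is at least 23.2-fold higher with 3 UMIs over the Control group as the floor (edgeR adjusted p = 1.35e-05). It was held in 11.5% of the Control and 17.4% of the Eed-cKO cells of the non-neural gate, at medians of 4096.5 and 4409 UMIs per cell. Thinned to 2000 UMIs, it was in 0% of the Control and 9.52% of the Eed-cKO Neurod cells, and in 6.02% and 6.84% of the gate. The other Control Slc17a6 cells held Tal1 in 0.888%. The Eed-cKO share was not tested against the gate. Gata3, a zinc finger factor that acts with Tal1 in GABAergic neurons, was at 0 in Control and at 0, 14.5 and 88.1 CPM in Eed-cKO, with 32 UMIs in 14 cells of 6 embryos (at least 11.3-fold higher, edgeR adjusted p = 0.00269), and 4.84% of the Eed-cKO gate held it. After thinning, Gata3 was in 4.76% of the Eed-cKO Neurod cells, 2.78% of the Eed-cKO gate and 3.01% of the Control gate, again with no test. Both were thus spread over most Eed-cKO embryos. Of the 33 Neurod cells with Tal1, 30 held Slc17a6 and 18 held Slc32a1, and of the 14 with Gata3, 11 and 9 did. Of all 150 Eed-cKO Neurod cells, 129 held Slc17a6 and 31 held Slc32a1, and the latter were deep, at a median of 8484 UMIs. Tfap2b gave 0 and 56 UMIs in 13 cells of 5 embryos (at least 19.7-fold higher, edgeR adjusted p = 0.000629), but had an adjusted p of 0.273 in the robust fit, in a range of 9.67e-10 to 0.273 over the alternatives. It was in 8.67% of the Eed-cKO Neurod cells and 10.4% of the Eed-cKO gate, so it did not stand above the gate. The other Eed-cKO Slc17a6 cells held Tfap2b in 13.2% and Gata3 in 14.5%, where 9.33% of the Eed-cKO Neurod cells held Gata3. Gata3 and Tfap2b also passed between the genotypes in the other Slc17a6 cells, by 4.19 and 3.22 on the log2 scale (edgeR adjusted p = 5.84e-08 and 5.26e-08).

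All 10 Hox genes that could be tested were higher in Eed-cKO Neurod cells, of 34 in the table, at a median log2 fold change of 4.45, against 0.822% called over all genes. Genes of a list reach the count filter here only through Eed-cKO cells, so the count of 10 is a description. Hoxc10 (chr15:102966796-102971893, plus strand) was at 0 in Control and at 0, 43.1 and 60.8 CPM in Eed-cKO, with 49 UMIs in 25 cells of 7 embryos (at least 17.2-fold higher, edgeR adjusted p = 7.91e-05). Hoxc13, Hoxd10 and Hoxb13 gave 33, 29 and 28 UMIs against 0 (at least 11.6-fold, 10.2-fold and 9.86-fold higher). DESeq2 gave none of these genes an adjusted p, and limma-voom called 9 of the 10.

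Counted in cells, 0 of 156 Control Neurod cells held a Hox UMI, which allows a share of up to 1.92% by 3 counts of the total and up to 2.34% by the 95% exact binomial interval, while 50 of 150 Eed-cKO Neurod cells held at least 1 Hox gene, 33.3% (95% exact binomial interval 25.9% to 41.5%). By embryo the Eed-cKO share was 0%, 23.5% and 51.7%. In the Eed-cKO cells of the non-neural gate, the share was 27.5% (23.9% to 31.3%), with a median depth of 4409 UMIs against 6422.5 in the Eed-cKO Neurod cells. Thinned to 2000 UMIs per cell, the shares were 21.8% (15.4% to 29.3%) and 19.4% (15.95% to 23.3%), so a single Hox gene in a Neurod cell cannot be told from what the gate held. The gate pools pericytes and leptomeningeal cells with endothelial cells and microglia, and the source of its Hox UMIs was not tested. At least 3 Hox genes were held by 23.3% (16.8% to 30.9%) of the Eed-cKO Neurod cells and 11.4% (8.93% to 14.3%) of the gate. After thinning the shares were 7.48% (3.79% to 12.99%) and 1.28% (0.472% to 2.77%), on 11 and 6 cells. These intervals did not overlap, but they cover counting error only and leave out the spread between embryos. The difference was not tested by embryo. The other Eed-cKO Slc17a6 cells held at least 1 Hox gene in 49.5% and at least 3 in 31.8%. As CPM, all Hox genes together were at 287 in Eed-cKO Neurod cells, 485 in the other Slc17a6 cells and 163 in the non-neural gate.

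**Figure D5:**
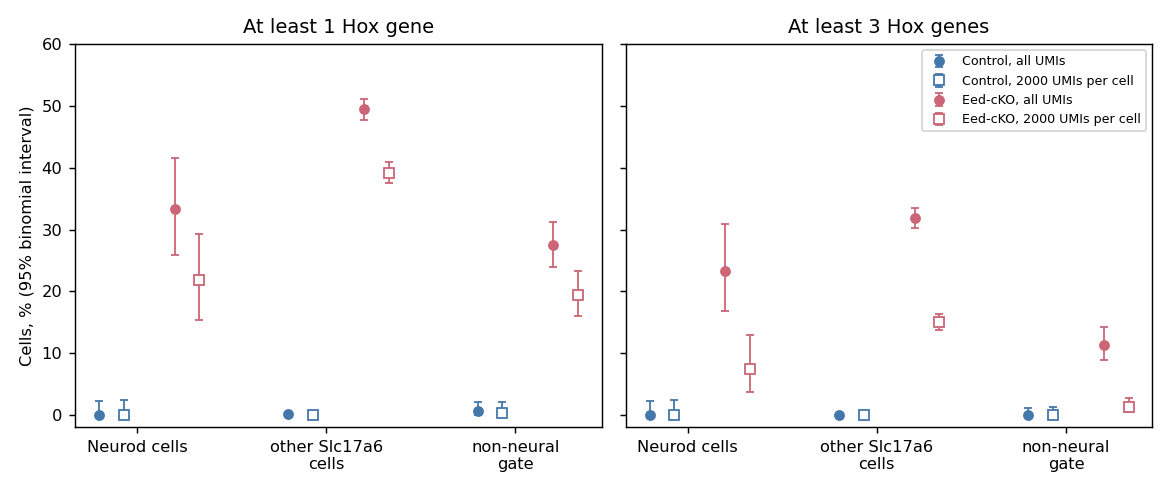
Percent of cells with at least 1 (left) or at least 3 (right) Hox genes (y axis) in Neurod cells, other cells with Slc17a6 and the non-neural gate, Control in blue and Eed-cKO in red; filled circles use all UMIs, open squares cells thinned to 2000 UMIs, and bars are 95% exact binomial intervals. Control cells lie at or near 0, and the Eed-cKO Neurod cells lie below the other Slc17a6 cells in both panels.

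Promoters of 4 of the genes above are shown because PRC2 in mammals is known for binding CG-rich promoters of silent developmental genes. Each line gives the 250 bases before the gene's start in RefSeq (GRCm38.p6), 5' to 3' on the gene's strand, with every CG in capitals. They lie at chr2:74691641-74691890 (Hoxd10, plus strand), chr2:9878601-9878850 (Gata3, minus strand), chr4:115056176-115056425 (Tal1, plus strand) and chr6:28135147-28135396 (Grm8, minus strand).
Hoxd10: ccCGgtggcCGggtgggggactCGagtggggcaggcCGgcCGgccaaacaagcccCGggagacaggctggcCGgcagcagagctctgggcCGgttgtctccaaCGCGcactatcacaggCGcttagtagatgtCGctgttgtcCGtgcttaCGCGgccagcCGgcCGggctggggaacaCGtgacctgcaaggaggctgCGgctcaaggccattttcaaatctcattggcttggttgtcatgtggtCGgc
Gata3: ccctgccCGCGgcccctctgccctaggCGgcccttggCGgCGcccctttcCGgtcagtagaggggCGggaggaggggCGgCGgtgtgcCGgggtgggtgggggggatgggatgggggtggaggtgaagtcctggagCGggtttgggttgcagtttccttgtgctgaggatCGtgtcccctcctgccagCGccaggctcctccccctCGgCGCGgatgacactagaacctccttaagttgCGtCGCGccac
Tal1: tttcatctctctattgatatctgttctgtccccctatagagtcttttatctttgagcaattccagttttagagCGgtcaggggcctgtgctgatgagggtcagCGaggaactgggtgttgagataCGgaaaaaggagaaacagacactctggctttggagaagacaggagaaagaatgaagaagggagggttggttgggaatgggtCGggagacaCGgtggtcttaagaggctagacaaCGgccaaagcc
Grm8: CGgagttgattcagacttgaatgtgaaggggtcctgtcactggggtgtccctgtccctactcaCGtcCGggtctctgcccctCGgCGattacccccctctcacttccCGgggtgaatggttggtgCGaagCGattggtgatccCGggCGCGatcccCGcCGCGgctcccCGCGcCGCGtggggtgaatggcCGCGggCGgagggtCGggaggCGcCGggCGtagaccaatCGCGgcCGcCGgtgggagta
The motif searched was the pair CG, which reads the same on both strands. Hoxd10 held 20 and Gata3 19 CG pairs, and 17.7% and 19.5% of 27025 promoters of the same length held at least as many. Tal1 held 6, which was also the median of all promoters. Grm8, which was lower in Eed-cKO, held 29, reached by 6.44% of promoters. Of genes not shown, Tfap2b held 5 and Myo7a 6. Over sets, the median was 17 for the 8154 tested genes with a promoter in the table, 13.5 for 32 of the 50 genes called higher and 16 for 27 of the 37 called lower. The median of the genes called higher thus lay below that of the tested genes. The count describes these windows and says nothing of binding.

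Genes of the synaptic lists had mostly negative log2 fold changes in Eed-cKO Neurod cells, but few passed. Bdnf, the neurotrophin of the ventromedial region and of cortical neurons, was at 25.8, 47.7 and 78.1 CPM in Control and at 0, 6.62 and 33.3 CPM in Eed-cKO (-2.07 ± 0.46, edgeR adjusted p = 0.00979), with 62 and 13 UMIs. The embryos overlapped, and the call was lost without Control embryo 1 or Eed-cKO embryo 4, with an adjusted p of 0.072 at most (0.003 to 0.93 over all alternatives). Bdnf was also lower in the other Slc17a6 cells (-1.41, edgeR adjusted p = 8.89e-07). Of 11 glutamate receptor subunits tested, Grik1 passed (-1.14 ± 0.29, edgeR adjusted p = 0.0427) and none had a positive log2 fold change, at a median of -0.373, where 0.822% of all genes passed and 4830 of 10583 were positive, although 1 was positive under each other scaling. Grik1 lost the call in 12 of 15 fits without an embryo and had an adjusted p of 0.0586 without the largest library (0.00213 to 0.819 over all alternatives). Of 11 GABA receptor subunits, Gabra5 passed (-1.01 ± 0.27, edgeR adjusted p = 0.0485), with the call lost in 12 of 15. Of 13 genes of synapse and neuronal maturity none passed in edgeR, DESeq2 or limma-voom, 6 had an unadjusted p under 0.05, as had 1126 of 10583 genes, and 1 was positive, at a median of -0.424. The summed level of all 15 genes of this list was 3055, 3545 and 3685 CPM in Control and 1768, 2575 and 3058 CPM in Eed-cKO. None of 6 pan-neuronal, 4 glutamatergic and 5 GABAergic transmission genes passed, with 2, 1 and 2 at an unadjusted p under 0.05.

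Of the immediate early genes, Fos and Fosb were higher in Eed-cKO Neurod cells. Fosb was at 0, 14.8 and 34.4 CPM in Control and at 0, 75.5 and 172 CPM in Eed-cKO (2.32 ± 0.40, edgeR adjusted p = 0.000534). Fos was at 8.41, 113 and 254 CPM and at 144, 324 and 606 CPM (1.70 ± 0.28, edgeR adjusted p = 0.000246), with an adjusted p of 5.74e-15 to 0.135 over the alternatives, the highest in the robust fit. Both overlapped between the genotypes, Fosb at the Eed-cKO embryo with none. All 9 immediate early genes tested had positive log2 fold changes at a median of 1.04 (4830 of 10583 genes were positive, at a median of -0.0453), 2 of them past the threshold against 0.822% of all genes. They are genes that dissociation of tissue is known to induce, and both were common in the Eed-cKO cells of the non-neural gate, Fos in 79.3% and Fosb in 67.7%, against 64.4% and 37.1% of the Control gate. Thinned to 2000 UMIs, the gate held Fos in 55.6% (Control) and 71.4% (Eed-cKO) and Fosb in 27.8% and 54.1% of its cells. The other Slc17a6 cells also passed in the same direction, by 1.03 for Fos and 1.45 for Fosb (log2). The part of dissociation in the difference was not tested.

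Among chromatin genes, Bmi1, a subunit of Polycomb repressive complex 1, was the 1 of 14 PRC1 genes that passed, against 0.822% of all genes. It was at 46.3, 60.8 and 85.6 CPM in Control and at 0, 125.9 and 216 CPM in Eed-cKO (1.06 ± 0.26, edgeR adjusted p = 0.0298), and every Eed-cKO embryo but the one at 0 lay above the Control embryos. The call was lost in 6 of 15 fits without an embryo, with an adjusted p up to 0.102 (0.00457 to 0.998 over all alternatives). Bmi1 was also higher in the other Slc17a6 cells (1.25, edgeR adjusted p = 7.26e-10). None of 9 PRC2 genes passed in edgeR, DESeq2 or limma-voom, and none had an unadjusted p under 0.05. None of 4 cyclin-dependent kinase inhibitor genes passed, with 1 at an unadjusted p under 0.05 (1126 of 10583 genes).

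Several called genes of the other lists lost the call in other settings or without 1 embryo. The neuropeptide gene Pnoc was at 7.13, 13.3 and 17.2 CPM in Control and at 9.44, 38.8 and 88.1 CPM in Eed-cKO (1.76 ± 0.44, edgeR adjusted p = 0.0346, lost in 7 of 15 fits without an embryo). Tbr1, a T-box factor of cortical glutamatergic neurons, gave 4 and 30 UMIs, and Tbx3, a T-box factor of arcuate progenitors, 3 and 27 UMIs, the latter with 25% of the Control cells of the non-neural gate holding it. Tbr1 (edgeR adjusted p = 0.0492) and Tbx3 (edgeR adjusted p = 0.0477) each lost the call in 11 of 15 such fits. Nkx2-1 was at 21.1, 73.9 and 92.6 CPM and at 47.2, 88.1 and 305 CPM (1.13 ± 0.30, edgeR adjusted p = 0.0485, 0.257 in the robust fit and 0.00107 to 0.997 over the alternatives). Igfbpl1, a gene of newborn neurons, was at 42.1, 101 and 152 CPM and at 52.7, 201 and 453 CPM (edgeR adjusted p = 0.0474, 0.356 in the robust fit and 0.000422 to 0.992 over the alternatives). The thalamic factor Tcf7l2 gave 580 UMIs in Control and 55 in Eed-cKO (-3.39 ± 0.62, edgeR adjusted p = 0.00109, 0.302 in the robust fit and 2.11e-51 to 0.621 over the alternatives), most of them from Control embryo 4 at 2175 CPM. Top2a, a gene of cycling cells, gave 0 and 19 UMIs in 8 cells (at least 6.69-fold higher), and lost the call in 6 of 14 fits. The summed cycling genes, given above, reached 121 CPM in Eed-cKO. Between the genotypes, the other Slc17a6 cells passed in the same direction for Pnoc, Tbx3, Igfbpl1 and Tcf7l2. They did not pass for Tbr1 (edgeR adjusted p = 0.381) or Nkx2-1 (edgeR adjusted p = 0.849).

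Hes1, Apoe and Vim, which are known from glia and other non-neuronal cells, were also higher in Eed-cKO. Hes1, a Notch target of progenitors and glia, gave 1 UMI in Control and 36 in Eed-cKO (4.29 ± 0.87, edgeR adjusted p = 0.00347), and 43.5% of the Control cells of the non-neural gate held it. Apoe (2.87 ± 0.58, edgeR adjusted p = 0.00365) was chosen after its values were seen, and 194 of its 326 Eed-cKO UMIs lay in 1 cell. Without Eed-cKO embryo 4 the adjusted p of Apoe was 0.249, and in the robust fit 0.348, in a range of 1.4e-23 to 0.398. Vim passed as well (1.62 ± 0.29, edgeR adjusted p = 0.00063, 0.132 in the robust fit and 2.45e-10 to 0.918 over the alternatives), and it was held by 68.8% of the Control cells of the gate. Astrocyte genes had positive log2 fold changes in 5 of 5 tested, with none past the threshold in edgeR, 4 at an unadjusted p under 0.05 and 1 called by limma-voom. Over all 10583 genes, 4830 were positive and 1126 had such a p. The part of glial or meningeal RNA in these differences was not tested. Also chosen after their values were seen, the nuclear receptor genes Nr2f2 and Nr2f1 were lower. Nr2f2 was at 198, 436 and 599 CPM in Control and at 0, 94.5 and 301 CPM in Eed-cKO (-1.67 ± 0.25, edgeR adjusted p = 4.32e-05, 0.079 in the robust fit and 6.8e-16 to 0.856 over the alternatives), and Nr2f1 at 77.4, 210 and 335 CPM and at 21.6, 52.7 and 152 CPM (-1.28 ± 0.26, edgeR adjusted p = 0.00347, 0.0501 in the robust fit and 2.12e-06 to 0.938 over the alternatives).

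Whether the genotype acted on Neurod cells otherwise than on the other Slc17a6 cells was tested with an interaction term. It passed for 27 of 15182 genes (0.178%), 9 with a more positive (0.0593%) and 18 with a more negative effect (0.119%) in Neurod cells. With scaling by library size alone the split was 15 and 17, without the largest library 26 genes passed, and in the robust fit 16. Ccnd2 was at 8.51 ± 1.57 CPM in Control and 60.4 ± 13.7 CPM in Eed-cKO in the other Slc17a6 cells, and at 46.1 ± 27.5 and 78.4 ± 52.1 CPM in Neurod cells. Its genotype effect was thus smaller in Neurod cells, by -2.05 ± 0.35 on the log2 scale (edgeR adjusted p = 1.18e-05, and 2.58e-06 to 0.0207 over the alternatives). Ebf2 was at 43.2 ± 15.6 and 17.4 ± 11.1 CPM in the other Slc17a6 cells and at 117 ± 45.4 and 132 ± 89.5 CPM in Neurod cells, so it was lower in Eed-cKO in the former and not in the latter (1.21 ± 0.29, edgeR adjusted p = 0.0193, and 0.00303 to 0.295 over the alternatives). The call of Ebf2 was lost in 5 of 15 fits without an embryo, and without the largest library its adjusted p was 0.0872. Of the same list of 6 Ebf genes and partners, Ebf1 passed the other way, with a more negative effect in Neurod cells. Gad1 was at 102 ± 25.6 and 375 ± 57.3 CPM in the other Slc17a6 cells and at 58.2 ± 60.2 and 74.6 ± 41.2 CPM in Neurod cells (-1.41 ± 0.27, edgeR adjusted p = 0.000228). Its adjusted p was 0.754 in the robust fit and 0.872 without Control embryo 6, in a range of 2.72e-06 to 0.927. Nrxn3, a presynaptic adhesion gene chosen after its values were seen, was at 149 ± 8.02 and 242 ± 37.1 CPM in the other cells and at 187 ± 32.9 and 115 ± 74.4 CPM in Neurod cells (-1.30 ± 0.20, edgeR adjusted p = 2.76e-07), with an adjusted p up to 0.105 over the alternatives and the call lost in 1 of 5 other settings. Ppp1r1b, a phosphatase inhibitor, was at 13.5 ± 8.63 and 2.55 ± 4.31 CPM in Neurod cells, a change that did not pass (-1.98, edgeR adjusted p = 0.322). In the other Slc17a6 cells it was hardly present in Control (0.147 CPM) and at 1.84 CPM in Eed-cKO (3.31, edgeR adjusted p = 0.00188). The difference of -5.08 ± 1.01 (edgeR adjusted p = 0.000665) thus drew on both. Eomes, a T-box factor, differed by 5.18 ± 1.18 (edgeR adjusted p = 0.0122), on 1 Control and 5 Eed-cKO Neurod cells. The call of Eomes was lost in 3 of 15 fits without an embryo, and its adjusted p ran from 0.00267 to 0.127 over the alternatives. Nhlh2 was at 127 ± 27.7 and 102 ± 25.7 CPM in the other cells and at 125.98 ± 83.8 and 237 ± 178 CPM in Neurod cells (edgeR adjusted p = 1.13e-06, and 4.39e-08 to 0.645 over the alternatives, the highest in the robust fit). Of the 87 genes called within Neurod cells, 4 also passed the interaction (Nr2f2, Apoe, Nkx2-1 and Cadm1). The interaction of Apoe had an adjusted p of 0.9 in the robust fit and 0.83 without Eed-cKO embryo 4, that of Nr2f2 one of 0.36 in the robust fit, and that of Nkx2-1 was lost in 5 of 15 fits without an embryo (adjusted p up to 0.702). Neither Hddc3 (edgeR adjusted p = 0.892), Grm8 (edgeR adjusted p = 0.138) nor Hoxc10 (edgeR adjusted p = 1) passed the interaction test.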

How the data were processed

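Per the labels, mRNA was read at its 3' ends. The values deposited are UMI counts, 1 column per cell, from the SureCell RNA Single-Cell pipeline. The submitters' processing notes name STAR 2.5.2b, SAMtools 1.3 and mm10, and the authors had removed cells with few UMIs. The strand setting is not given in the sources used here. Every column was used, and no cell was removed here, doublets included. UMIs were added up within each embryo for genes with at least 15 UMIs over the embryos and 2 in 1 embryo, in embryos with at least 5 Neurod cells. The quasi-likelihood test of edgeR 4.0.16 under R 4.3.3 used TMM scaling and Benjamini-Hochberg adjustment over all genes tested, at 0.05. Against other Slc17a6 cells the embryo was a block, because each animal gave both sums. The rule genes, and Slc17a6 in that comparison, got no test. DESeq2 1.42.0, limma 3.58.1 (voom, also with TREAT) and a robust edgeR fit were alternatives. Shares were tested by permuting embryos exactly (scipy 1.17.1), and doublets scored with Scrublet in scanpy 1.11.5. CPM divides by all UMIs of the summed cells and is compared within a gene. Gene positions are from GENCODE vM21 (GRCm38).

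The cells, gene lists and tests were chosen with earlier results of these data known. By rule, the genes named were the called genes without overlap that rose or fell most (up to 10 each way), called genes of a list (up to 4 each), against other Slc17a6 cells the 10 largest rises and 5 largest falls with 1 direction in all Control embryos and at least 50 UMIs, and the 5 largest interactions in each direction. Tal1, Apoe, Vim, Nr2f2, Nr2f1, Cadm1, Ebf2, Tcf4, Lmx1a, Nfib, Nrxn3, Rpl8, Rpl13, Rpl19, Rps9 and the interactions of Nkx2-1 and Ebf1 were chosen after their values were seen. Intervals and upper limits (3 UMIs of the total) cover counting error only. Some genes of the lists are not reported here.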

Additional observations from a re-analysis of the deposited data

Results flagged for a closer look

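Some embryos stood apart from the rest of their group in a Neurod cell value. Of 71 groups of embryos checked, 12 had an outlying embryo. The chance rate of about 1 in 20 groups does not hold where all other embryos are at 0, since any count is then flagged. That was so for Myo7a in Eed-cKO and Hes1 in Control, each on 1 UMI. It was also so in Control for Tbx3 and for Slc32a1 without Slc17a6. The share of Neurod cells with Slc32a1 and no Slc17a6 was 7.69% in Control embryo 6 and 0% in the other Control embryos, and 15.4% in Eed-cKO embryo 9 against at most 5.88% in the other Eed-cKO embryos. Myo7a was at 4.84 CPM in Eed-cKO embryo 5 and 0 in the others, and Rps13 at 0.0 CPM in Eed-cKO embryo 2, which had 6 Neurod cells, against 167 to 286 CPM in the others. Hes1 was at 5.31 CPM in Control embryo 5 and 0 in the other Control embryos, and at 151 CPM in Eed-cKO embryo 8. Hoxd10 reached 86.2 CPM in Eed-cKO embryo 8. Tbr1 was at 12.6 CPM in Control embryo 2, and Tbx3 at 15.9 CPM in Control embryo 5. Tcf7l2 was at 2175 CPM in Control embryo 4 against at most 684 CPM in the other Control embryos, and at 625.2 CPM in Eed-cKO embryo 8 against at most 52.9 CPM. Top2a was at 63.0 CPM in Eed-cKO embryo 5 against at most 18.9 CPM.

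The genotype effect (Eed-cKO minus Control, log2) in Neurod cells differed from that in the other Slc17a6 cells by an interaction test of edgeR for 10 genes given here. It was more negative in Neurod cells for Ppp1r1b by -5.08, Sst by -3.15, Ccnd2 by -2.05, Slc2a1 by -1.98 and Gad1 by -1.41. Sst rested on 274 UMIs in 1 Control Neurod cell and had an adjusted p of 0.113 in the robust fit (1.43e-71 to 0.113 over its alternatives), and Slc2a1 had one of 0.914 without the largest library (0.0142 to 0.914). It was more positive for Eomes by 5.18, Ptgds by 3.06, Apoe by 1.63, Nhlh2 by 1.26 and Ebf2 by 1.21. Ptgds had an adjusted p of 0.872 in the robust fit (3.9e-12 to 0.9 over its alternatives) and was held by 20.03% of the Eed-cKO cells of the non-neural gate, against 8.67% of the Eed-cKO Neurod cells.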

How the results depend on the processing

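The near-zero difference in the share of Neurod cells changed sign with the setting and passed no test. In percentage points it was -0.859 with Slc17a6 cells as denominator, -0.0245 and -0.11 with cells thinned to 2000 and 1000 UMIs, -0.00654 without the condition on Gbx2, -0.211 with all 3 Neurod genes, -0.337 with at least 2 UMIs in each of 2 genes, -0.00754 and -0.0586 without the 6% highest doublet scores or the 5% largest cells, -0.178 with libraries as samples and -0.0367 without the largest library, and it was -0.00905 as a centred log ratio. It was 2.89 (exact permutation p = 0.0619) with at least 1 Neurod gene, 0.763 thinned to 4000 UMIs and 0.394 with neuron-gate cells as denominator. With 1 embryo left out it ran from -0.105 to 0.137. Thinning gave -0.0712 for Neurod1 with Neurod6 and 0.0708 for Neurod2 with Neurod6, and leaving out an embryo gave 0.296 to 0.442 for Neurod1 with Neurod2, -0.0978 to 0.123 for Neurod1 with Neurod6, -0.216 to -0.0903 for Neurod2 with Neurod6 and -0.257 to -0.145 for all 3.

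The 87 genotype calls became 183 without a gene filter, 46 with filterByExpr, 52 with DESeq2, 35 with limma and TREAT, 207 with libraries as samples, 22 in Neurod cells with Slc17a6 and no Slc32a1 (7 higher, 15 lower), 7 in cells with all 3 genes (1 and 6), 30 after thinning (11 and 19), where the reported split was 50 and 37, 140 without the largest library and 40 to 107 without 1 embryo (40 without Eed-cKO embryo 4, 48 without Control embryo 2 and 50 without Control embryo 1 or 3). Fewer cells or genes entered several of these fits, and other causes were not tested. Igfbpl1 was at -0.632 in cells with all 3 genes. The interaction calls were 16 in the robust fit, 4 with filterByExpr, 15 against all other neurons, where Gad1 was at 0.29, and 18 to 34 without 1 embryo.

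With no replicate block, the comparison with other Slc17a6 cells called 187 (Control) and 288 (Eed-cKO) genes, where the pairing by embryo called 445 and 453. DESeq2 gave 204 in each, 124 higher and 80 lower in Control and 102 each way in Eed-cKO, where edgeR had more lower than higher genes, thinning 222 in Control (41 higher, 181 lower; reported, 158 and 287) and 432 in Eed-cKO (36 and 396; reported, 121 and 332), and filterByExpr 217 in Eed-cKO, and fits without 1 embryo gave 308 to 433 and 328 to 422. No paired analysis was possible because the embryos of the 2 genotypes are different animals whose numbers follow only the order of their library names. The fit without the largest library and the robust fit were chosen after seeing the data.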
